A study of Apostichopus japonicus with 3 samples.

Results

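The microtubule module of the sea cucumber Apostichopus japonicus comprised the assembled transcripts (isotigs) annotated as tubulins, kinesins, dyneins, dynactins or microtubule-associated proteins. Members were chosen from the name of the first KEGG Orthology entry, which had to hold tubulin, kinesin, dynein, dynactin, intraflagellar, radial spoke or microtubule, and no kinase. The rule gave 144 of 21290 isotigs, under 41 KEGG names, and used no measured value. No member was named for intraflagellar transport or for radial spokes.

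The study compared 3 conditions with 1 RNA-seq library each. Control animals were kept under natural light of about 100 lux, the light group under strong light of about 2000 lux, and the dark group in a fully dark tank under a shade cloth. Both exposures lasted 2 h. All animals were Apostichopus japonicus, and neither their age nor how many went into a library was stated. The labels disagree on the tissue: body wall stands in the title, the tissue field and the RNA extraction text, and intestine in the sample source. With 1 library per condition no test between conditions was possible, so each fold is given with its 95% counting interval, which covers counting error only and not the variation between animals. Reads were not tagged by molecule, so even the counting error may be larger than these intervals.

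Microtubules are hollow filaments of alpha- and beta-tubulin dimers, with gamma-tubulin at the sites where they start to grow. Most kinesins carry cargo towards the fast-growing plus end, and cytoplasmic dynein with its partner complex dynactin carries cargo towards the minus end. Axonemal dyneins instead bend cilia and flagella, and microtubule-associated proteins stabilise or track the filaments.

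In units of 1000 reads, the deposited counts summed to 1570 for control, 1698 for dark and 1645 for light. The 20 most abundant isotigs took 18.9% of reads in control, 23.5% in the dark and 18.6% under strong light. Isotigs averaging 1 RPKM or more over the libraries were compared, where RPKM is the read count scaled by isotig length and library total. This left 18225 of all isotigs and 102 of the 144 members. Across all of these, the median isotig was 1.24-fold lower in the dark library than in control (log2 ratio -0.31) and level between light and control (0.00). Muscle markers were present (97 isotigs with 6604, 5476 and 7196 reads in control, dark and light), and so were digestive markers (20 isotigs with 4160, 4372 and 4345 reads).

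Levels differed widely between the roles of the module. Tubulins and the small LC8-type dynein light chains were abundant, microtubule-associated proteins and conventional kinesin were intermediate, and most axonemal dynein heavy chains were barely detected. The highest mean was 912 RPKM, in a beta-tubulin isotig, against a median of 7.05 RPKM over the 102 compared members and 14.3 RPKM over all compared isotigs. Reads were found in all 3 libraries for 103 members, 32 had a mean of at least 30 reads, and 83 had a mean under 10 reads. Members ran from 266 to 3121 bases, and 61 of them shared their best database protein with another member, so that some isotigs may be parts or variants of 1 transcript, or copies of a gene, which was not tested.

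**Figure D1:**
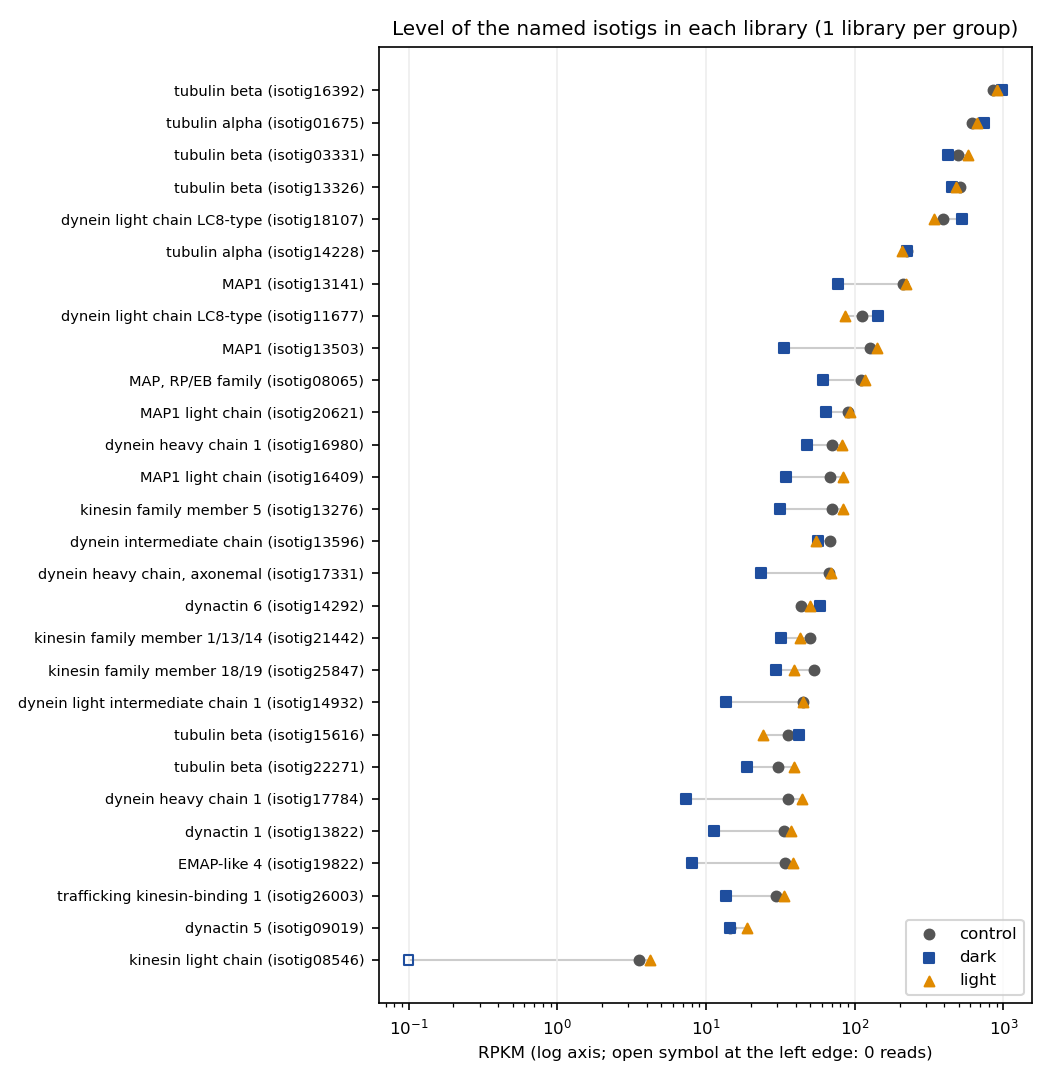
Level of the named members in each library, in RPKM on a log axis, ordered by mean level, with 1 point per library and an open point for 0 reads (MAP, microtubule-associated protein; EMAP, its echinoderm family). Tubulins and LC8-type dynein light chains lie at the top, and the dark points lie left of both others for each kinesin, dynein heavy chain and MAP shown.

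In the dark library, the summed reads of motors and microtubule-associated proteins were lower than in control, while those of tubulins and dynein light chains were not. At least 2-fold lower in the dark were 31 of the 102 compared members (30.4%), where the share over all compared isotigs was 24.0% and that over isotigs with any KEGG name was 29.7%. At least 2-fold higher were 6 members (5.88%, against 7.09% of all compared isotigs). By counting error alone, the interval lay wholly below 1 for 34 members (33.3%, against 22.1% of all and 34.2% of those with a KEGG name) and wholly above 1 for 7 (6.86%, against 7.64% of all). The median log2 ratio of the members was -0.56, which is -0.25 relative to all compared isotigs, and it was also -0.56 over isotigs with a KEGG name. The module as a whole therefore lay where annotated transcripts lay. Its role sums differed from each other, but isotigs within a role differed too, and no role was tested against another. Over all compared isotigs the median dark log2 ratio was -0.29 at 20 to 100 RPKM, -0.18 at 100 to 500 and 0.35 above that. The 2 members in this top range were tubulins. Whether level had a part in the differences between roles was not tested. Fewer cells of a type and less RNA per cell cannot be told apart in libraries made from whole tissue.

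Members together took 0.806% of reads in control (Wilson 95% interval 0.792 to 0.820), 0.718% in the dark (0.705 to 0.730) and 0.834% under strong light (0.820 to 0.848). Without the tubulins the shares were 0.324%, 0.210% and 0.336%. The non-tubulin members had 5090, 3566 and 5524 reads, so that the dark library was 1.54-fold below control (interval 1.48 to 1.61). Among the 32 members averaging 30 reads or more, 9 were 2-fold or more below control in the dark (28.1%, against 18.1% of all isotigs at that depth and 25.8% of those with a KEGG name), and none was at least 2-fold higher (2.45% of all).

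**Figure D2:**
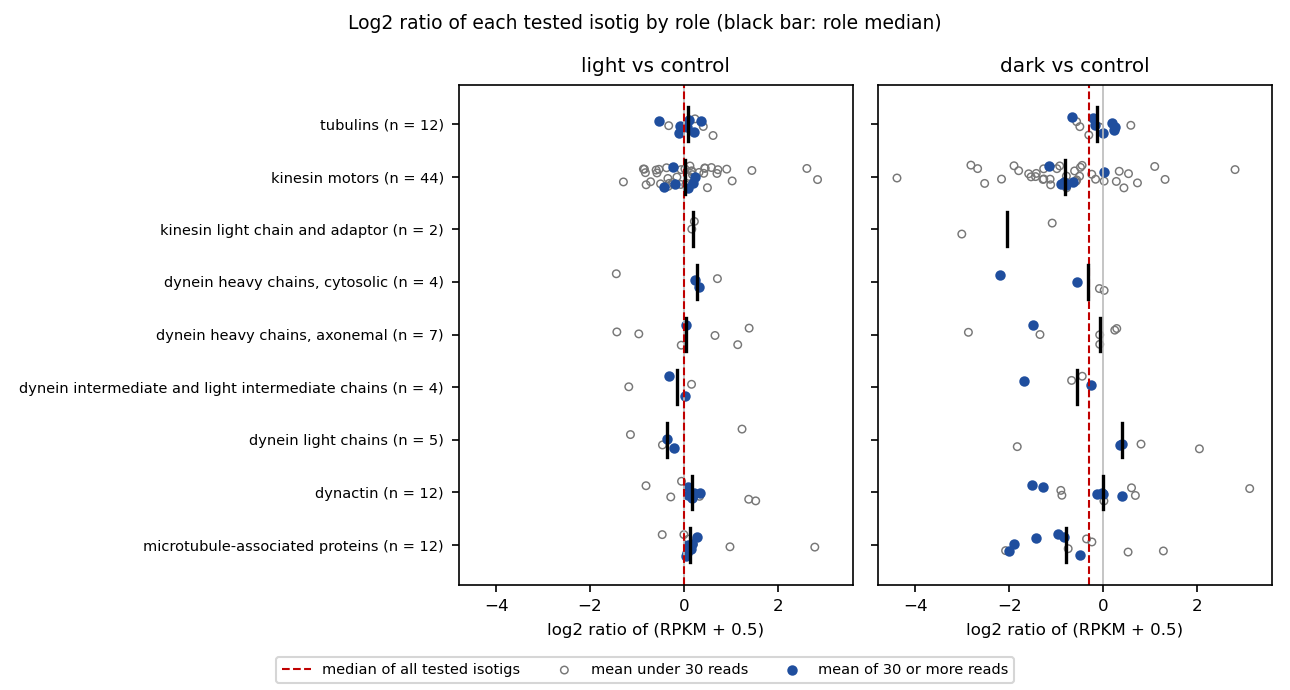
Log2 ratio of each compared member by role, dark against control and light against control, with the median of each role and of all compared isotigs. The dark medians run from -2.05 for kinesin light chain and adaptor to 0.41 for dynein light chains, whereas the light medians lie between -0.37 and 0.28.

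Markers of cell types that could hold much of the module differed between the libraries too. Neuronal markers (13 isotigs) had 512, 288 and 486 reads, 1.92-fold lower in the dark (1.66 to 2.23), with 5 isotigs at least 2-fold lower (38.5%, against 24.0% of all compared isotigs and 29.7% of those with a KEGG name) and none at least 2-fold higher. The list's median dark log2 ratio was -0.30, beside -0.31 for all, and ELAV-like protein had 102 reads in both control and dark. The lower sum came mainly from synaptotagmin-1 (236 and 129 reads in control and dark) and syntaxin 1A (147 and 40 reads). Ciliated-cell markers had 159, 68 and 168 reads over 30 isotigs, but 29 of these are axonemal heavy chains of the module itself, and the remaining one, forkhead box protein J1, had 4, 4 and 3 reads. No tektin or radial spoke name was found. Markers of dividing cells (19 isotigs) had 749, 695 and 716 reads, 1.17-fold lower in the dark (1.05 to 1.29). At least 2-fold lower in the dark were 3 of them (15.8%, against 24.0% of all) and higher 1 (5.26%, against 7.09%). Names of this list went both ways. Proliferating cell nuclear antigen had 152 and 190 reads in control and dark, and minichromosome maintenance protein 5 had 47 and 26. Muscle markers were 1.30-fold lower in the dark. The lower muscle sum came mainly from myosin heavy chain (3524 and 2368 reads in control and dark). Titin had 3009 and 3080 reads, a dark ratio of 0.946. Whether the share of these cells had a part in the lower motor and associated-protein reads was not tested.

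Tubulins, the building blocks of the filament, differed little between the libraries when summed per library total. Their 17 isotigs held 7569 reads in control, 8622 in the dark and 8198 under strong light. The dark sum was 1.05-fold control (interval 1.02 to 1.09), or 1.29-fold as a sum of RPKM with median-of-ratios size factors. Against control, none of the 12 compared tubulin isotigs passed 2-fold in either exposure. Of all compared isotigs, 24.0% were at least 2-fold lower and 7.09% higher in the dark, and 7.22% and 7.77% under strong light. The tubulins' median log2 ratio in the dark was -0.13, which is 0.18 above that of all compared isotigs. It turned to 0.14 with those size factors in place of library totals.

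Alpha-tubulin isotigs summed to 3231, 4041 and 3565 reads in control, dark and light. The dark sum was 1.16-fold control (1.10 to 1.21). Most of it came from isotig01675, with 2626, 3398 and 2970 reads and 618, 739 and 667 RPKM, which was 1.20-fold higher in the dark (1.14 to 1.26). The other abundant alpha isotig, isotig14228, stood at 572, 618 and 557 reads, and its dark interval of 0.890 to 1.12 spanned 1. One alpha isotig was thus highest in the dark, while the other was level per library total and 0.32 higher on the log2 scale with size factors.

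Beta-tubulin isotigs summed to 4318, 4562 and 4613 reads, and the dark fold of 0.977 had an interval of 0.937 to 1.02, while with size factors the dark sum of RPKM was 1.24-fold control. The beta isotigs differed from each other. The most abundant member of all, isotig16392, had 1544, 1916 and 1697 reads and 856, 982 and 898 RPKM, and was 1.15-fold higher in the dark (1.07 to 1.23). In contrast, isotig13326 had 1854, 1773 and 1825 reads and was 1.13-fold lower in the dark (1.06 to 1.21). The next beta isotig, isotig03331, had 811, 755 and 988 reads, 1.16-fold lower in the dark (1.05 to 1.28) and 1.16-fold higher under strong light (1.06 to 1.28). These small beta-tubulin differences depend on scaling, since isotig13326 and isotig03331 turned higher in the dark with size factors in place of library totals, by 0.14 and 0.10 on the log2 scale.

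The lesser tubulins had few reads. Beta isotig15616 had 71, 91 and 51 reads, with a light-to-control ratio of 0.686 (0.469 to 0.997). Beta isotig22271 showed the reverse order, with 31, 21 and 42 reads, but both of its intervals against control spanned 1. Its light-to-dark ratio was 2.06 (1.20 to 3.67). Gamma-tubulin, which nucleates microtubules, had 18, 13 and 15 reads, too few to separate the libraries.

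Microtubule-associated proteins were 2.47-fold lower in the dark than in control (2.28 to 2.67), with 2011, 882 and 2277 reads over 12 isotigs. In the dark 4 of the 12 were at least 2-fold lower (33.3%, near the 29.7% of isotigs with a KEGG name, and 24.0% of all) and 1 was at least 2-fold higher, on a single read. Counting intervals lay wholly below 1 for 7 (58.3%, against 34.2% of isotigs with a KEGG name and 22.1% of all) and wholly above 1 for none. These shares are not matched for depth, and deeper isotigs have narrower intervals. Of the 12, 6 averaged 30 reads or more. At that depth 53.9% of isotigs with a KEGG name and 38.5% of all lay wholly below 1. The group's median dark log2 ratio was -0.79, or -0.48 relative to all compared isotigs, beside -0.56 over isotigs with a KEGG name. With size factors the group's median was -0.53. The dark sum of RPKM was then 0.555-fold control, against 0.445-fold with library totals.

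Most of these reads came from microtubule-associated protein 1, known in vertebrates as a large protein of neuronal microtubules. Its longer isotig, isotig13141, counted 963 reads in control, 382 in the dark and 1062 under strong light, at 211, 77.4 and 222 RPKM. The dark value was 2.73-fold lower (2.42 to 3.08). Its second isotig, isotig13503, has the same best database protein and held 407, 116 and 475 reads, 3.79-fold lower in the dark (3.08 to 4.71). In both isotigs the dark library stood apart, and the light library was 1.05-fold (0.964 to 1.15) and 1.11-fold (0.974 to 1.28) control, with intervals that spanned 1. Over the name, the sums of 1370, 498 and 1537 reads put the dark library 2.98-fold below control (2.68 to 3.30).

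The end-binding protein of the RP/EB family, which tracks growing plus ends, had 292, 177 and 327 reads in isotig08065. Its dark value was 1.78-fold lower (1.48 to 2.16). The echinoderm microtubule-associated protein-like 4 isotigs belong to a family first described in sea urchin. The 6 isotigs of this name summed to 102, 41 and 122 reads, and 5 had reads in control against 6 in the dark. Of these, isotig19822 had 43, 11 and 51 reads and was 4.23-fold lower in the dark (2.14 to 9.09). A second, isotig21513, had 33, 8 and 37 reads and was 4.46-fold lower (2.02 to 11.2). All 3 isotigs singled out here were lowest in the dark, and their light and control values differed by less than the counting error.

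The isotigs named microtubule-associated protein 1 light chain belong to the family of LC3, which coats autophagosomes. The first, isotig16409, had 122, 67 and 156 reads, 1.97-fold lower in the dark (1.45 to 2.69). The second, isotig20621, stood at 89.5, 63.8 and 92.8 RPKM, 1.40-fold lower (1.04 to 1.90). Other autophagy genes, a list of 7 isotigs that includes the related GABA(A) receptor-associated protein, took 0.0162%, 0.00966% and 0.0192% of reads, and 3 of the 7 were at least 2-fold lower in the dark, where 24.0% of all compared isotigs and 29.7% of those with a KEGG name were. The median dark log2 ratio of that list was -0.92.

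Kinesin motors, which walk along microtubules, were the largest role with 53 isotigs. They summed to 983 reads in control, 577 in the dark and 1091 under strong light, 1.84-fold lower in the dark (1.66 to 2.05). Among the 44 compared, 17 were at least 2-fold lower in the dark (38.6%, against 24.0% of all compared isotigs and 29.7% of those with a KEGG name) and 3 at least 2-fold higher (6.82%, against 7.09% of all). The 3 higher ones had at most 11 reads in control or dark. Counting intervals lay wholly below 1 for 15 (34.1%, against 22.1% of all and 34.2% of those with a KEGG name) and wholly above 1 for none (7.64% of all). The median dark log2 ratio was -0.80, or -0.49 relative to all compared isotigs, beside -0.56 over isotigs with a KEGG name. With size factors the kinesin median was -0.52. The dark sum of RPKM was then 0.722-fold control, against 0.579-fold with library totals.

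Conventional kinesin, kinesin family member 5, is the general plus-end carrier of vesicles and had the kinesin isotig with the highest mean RPKM. Its single isotig, isotig13276, had 266, 129 and 330 reads, at 70.3, 31.5 and 83.3 RPKM. The dark value was 2.23-fold lower (1.80 to 2.77), and the light value was 1.18-fold control (1.005 to 1.40). Among transport kinesins, the family 1/13/14 isotigs, which carry vesicles and synaptic cargo in other animals, held 246, 141 and 289 reads over 16 isotigs. That sum was 1.89-fold lower in the dark. Of these isotigs, isotig13747 had 30, 6 and 32 reads and was 5.41-fold lower (2.21 to 15.9). Another, isotig21442, had 55, 38 and 49 reads and was 1.57-fold lower (1.02 to 2.43). Kinesin family 3/17, the motor of intraflagellar and some axonal transport, had 74, 40 and 65 reads, with a dark ratio of 0.4998 (0.331 to 0.744).

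Mitotic and spindle kinesins differed among themselves in the dark. Kinesin family member 11, which slides spindle microtubules apart, had 34, 19 and 41 reads in isotig13938, 1.94-fold lower in the dark (1.07 to 3.59). Kinesin family 18/19, which trims microtubule ends, summed to 48, 36 and 35 reads, and its dark interval of 0.437 to 1.09 spanned 1. Its isotigs differed: isotig25847 had 40, 24 and 31 reads, with a dark ratio of 0.555 (0.320 to 0.943), and isotig13876 had 4, 11 and 2 reads. The minus-end motor kinesin family member C1 split between its isotigs. The longer, isotig13314, had 50, 55 and 56 reads and was level, while isotig17391, with a weak database match (E-value 1e-09), had 34, 13 and 28 reads and was 2.83-fold lower in the dark (1.45 to 5.84). Kinesin family 15 (60, 45 and 74 reads) and family 20/23 (32, 23 and 47 reads) had dark intervals that spanned 1.

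Kinesin family 6/9, whose members are found in cilia and flagella, held the only compared kinesin isotig whose counting interval lay wholly below 1 in both exposures. Its main isotig, isotig13282, counted 26 reads in control, 8 in the dark and 10 under strong light. It was 3.51-fold lower in the dark (1.55 to 8.98), and its light-to-control ratio was 0.367 (0.158 to 0.787).

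Kinesin light chain, which links conventional kinesin to cargo, had no reads in the dark for isotig08546, against 12 in control and 15 under strong light. Its counting interval put it at least 3.01-fold lower in the dark. With the dark count set to a floor of 3 reads, it was 4.33-fold lower. Its reads covered 6.06% of its 2162 bases in control, so they came from a small stretch of the isotig. A family 4/7/21/27 kinesin, isotig22505, had 10, 0 and 8 reads. It was 3.61-fold lower in the dark with the same floor, which is not a lower limit. The adaptor trafficking kinesin-binding protein 1, which ties motors to mitochondria, had 22, 11 and 26 reads in isotig26003 and was 2.16-fold lower in the dark (1.01 to 4.94). The 3 cargo-linking isotigs summed to 37, 13 and 47 reads, 3.08-fold lower in the dark (1.599 to 6.31).

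**Figure D3:**
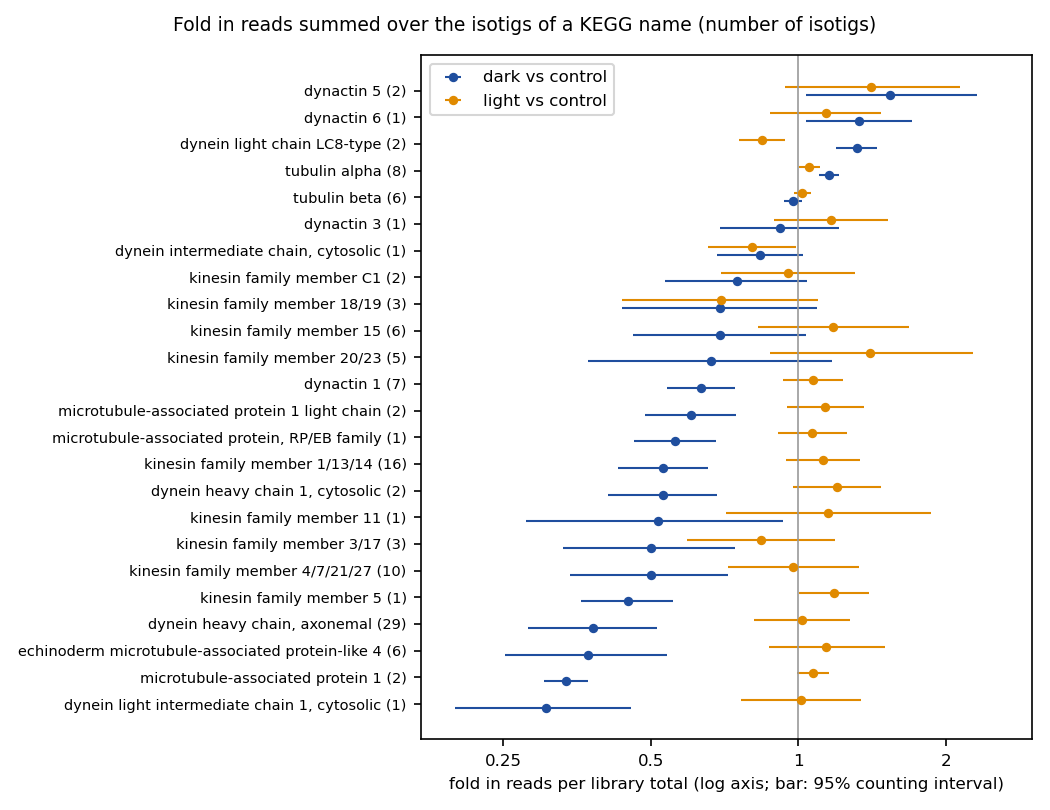
Fold in reads per library total, summed over the isotigs of each KEGG name with enough reads, for dark against control and light against control, on a log axis with 95% counting intervals. Dark folds run from 0.305 for dynein light intermediate chain 1 to 1.54 for dynactin 5, while most light folds have intervals that span 1.

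Dynein heavy chains hold the motor domain, and their summed reads were lower in the dark in both the cytosolic and the axonemal class. Cytosolic heavy chains had 182, 110 and 223 reads over 6 isotigs, 1.79-fold lower in the dark (1.40 to 2.29). Nearly all came from heavy chain 1, the general minus-end motor, in isotigs that share their best database protein. The first, isotig16980, had 117, 86 and 144 reads, 1.47-fold lower in the dark (1.10 to 1.97). The second, isotig17784, had 54, 12 and 71 reads, 4.87-fold lower (2.57 to 9.995). Both were lowest in the dark and highest under strong light, but their dark intervals did not overlap. Heavy chain 2, the motor of return transport in cilia, had 11, 12 and 8 reads over 4 isotigs and was not separable at this depth. Over the 4 compared cytosolic heavy chain isotigs the median dark log2 ratio was -0.32, beside -0.31 for all compared isotigs. With size factors the dark sum of RPKM of cytosolic heavy chains was 0.675-fold control, against 0.542-fold with library totals.

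Axonemal heavy chains numbered 29 isotigs with 155, 64 and 165 reads, 2.62-fold lower in the dark (1.95 to 3.56). Most of these reads fell on isotig17331, with 108, 41 and 117 reads and a dark value 2.85-fold lower (1.97 to 4.19). The other isotigs summed to 47, 23 and 48 reads, 2.21-fold lower in the dark (1.32 to 3.81). Of the 29, 23 had at most 3 reads in any library, and 15 had no read in the dark, against 6 in control and 6 under strong light. The role rested on few reads, and the only compared members were 7 isotigs, whose median dark log2 ratio was -0.07 (0.13 with size factors). With size factors the dark sum of RPKM of the role was 0.453-fold control, against 0.363-fold with library totals.

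Intermediate and light intermediate chains bind dynactin and cargo adaptors. Cytosolic light intermediate chain 1 counted 100 reads in control, 33 in the dark and 106 under strong light in isotig14932. It was 3.28-fold lower in the dark (2.19 to 5.02). The cytosolic intermediate chain, isotig13596, followed another order, with 209, 189 and 176 reads. Its dark interval of 0.683 to 1.02 spanned 1, and its light-to-control ratio was 0.804 (0.654 to 0.987). In the dark the direction of isotig13596 changed with size factors (0.06 on the log2 scale, against -0.26 with library totals).

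Dynein light chains went the other way in the dark. LC8-type light chains, small dimers that bind dynein and many other proteins, summed to 719 reads in control, 1024 in the dark and 636 under strong light. The dark sum was 1.32-fold control (1.20 to 1.45), and the light sum was 0.844-fold control (0.758 to 0.941). With size factors the dark sum of RPKM was 1.64-fold control. Both isotigs had the same order. The main one, isotig18107, had 586, 840 and 528 reads at 395, 523 and 340 RPKM, 1.33-fold higher in the dark (1.19 to 1.48). The other, isotig11677, had 133, 184 and 108 reads, 1.28-fold higher in the dark (1.02 to 1.61). LC8 was thus highest in the dark and lowest under strong light in each isotig, but the light-to-control interval of isotig11677 (0.596 to 1.007) spanned 1.

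The roadblock-type light chain showed a split between isotigs of the same best database protein. In isotig08721 there were 6, 32 and 17 reads, 4.93-fold higher in the dark (2.03 to 14.4). In isotig08722 there were 10, 2 and 4 reads, with a dark ratio of 0.185 (0.0197 to 0.868). The sum over both was 16, 34 and 21 reads, with a dark ratio of 1.97 (1.05 to 3.81). Axonemal light chain 4, isotig13785, had 11, 22 and 8 reads, and its dark interval of 0.859 to 4.22 spanned 1.

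**Figure D4:**
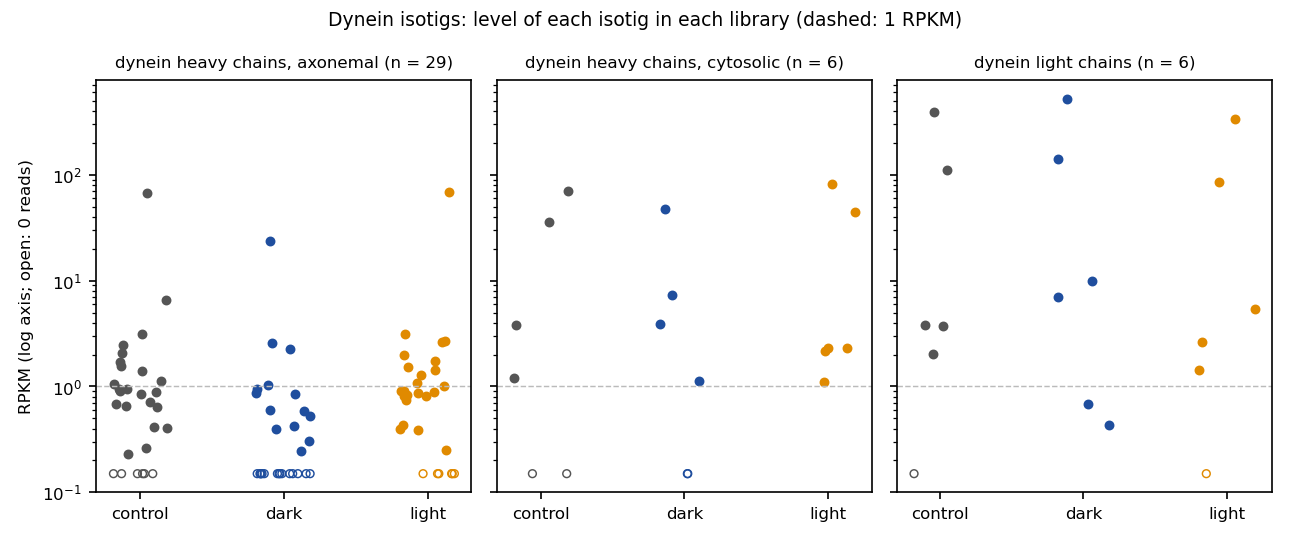
Level of every dynein heavy and light chain isotig in each library, in RPKM on a log axis, with 1 point per isotig and open points at the bottom for isotigs without reads. The dark column holds 15 axonemal heavy chains without reads, against 6 in control and 6 in light, but 23 of the 29 had at most 3 reads in any library. The top light chain stands at 395, 523 and 340 RPKM in control, dark and light.

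Dynactin, the complex that couples dynein to cargo, was mixed. Its 13 isotigs held 654, 607 and 765 reads, 1.17-fold lower in the dark by reads (1.04 to 1.30). With size factors the dark sum of RPKM was 1.10-fold higher than control, so the direction of the sum depends on scaling. Dynactin 1, the large shoulder subunit that binds dynein, had 384, 263 and 431 reads over 7 isotigs. Among its isotigs, isotig13914 and isotig10395 have the same best database protein.

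The first of these, isotig13914, had 146, 64 and 163 reads and was 2.47-fold lower in the dark (1.83 to 3.36). The second, isotig10395, stood at 45.4, 44.9 and 48.5 RPKM, with a dark interval of 0.747 to 1.31. A further isotig, isotig13822, had 95, 35 and 112 reads and was 2.94-fold lower in the dark (1.97 to 4.46), but its match was weaker (E-value 9e-12) and its second KEGG entry was a myosin heavy chain. Dynactin 1 isotigs therefore did not share 1 pattern.

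The pointed-end subunits dynactin 5 and dynactin 6, which sit at the end of the complex's actin-like filament, were not lower in the dark. Dynactin 6, isotig14292, had 110, 158 and 131 reads, 1.33-fold higher in the dark (1.03 to 1.71). Dynactin 5 in isotig09019 had 40, 43 and 54 reads, and its dark interval of 0.631 to 1.57 spanned 1. Its other isotig, isotig09020, had 2, 27 and 8 reads, with a dark ratio of 12.5 (3.14 to 108). The shoulder subunit dynactin 3, isotig14707, had 105, 104 and 128 reads and was not separable between libraries.

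Setting each role against the tubulins of its own library removes the library total from the comparison. Kinesin motors had 18.3 RPKM per 100 RPKM of tubulin in control, 10.2 in the dark and 18.4 under strong light. Microtubule-associated proteins had 24.97, 10.7 and 26.1, and cytosolic dynein heavy chains had 3.92, 2.05 and 4.57. Dynein light chains had 18.3, 23.5 and 14.8, and dynactin had 9.17, 7.81 and 9.96. Relative to tubulin, motors and associated proteins were lowest in the dark, and light chains were highest. The tubulin sum of RPKM itself was 1.04-fold control in the dark. The median compared isotig was 1.24-fold lower there, and the median isotig with a KEGG name 1.47-fold lower. A lower dark value per tubulin is therefore not particular to motors and associated proteins.

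**Figure D5:**
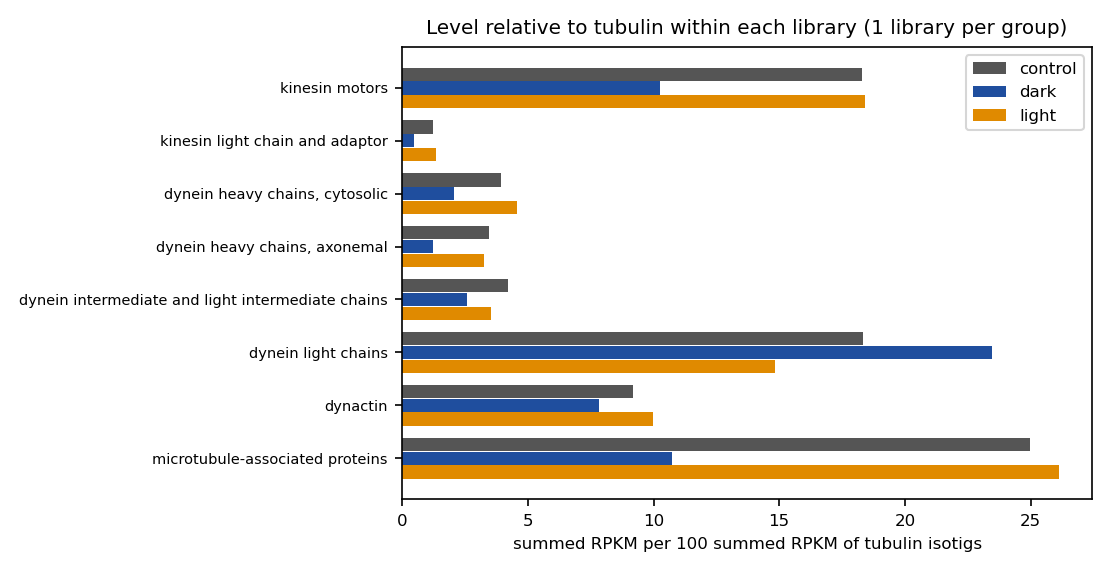
RPKM of each role per 100 RPKM of tubulin in the same library. Kinesin motors stand at 18.3, 10.2 and 18.4 and microtubule-associated proteins at 24.97, 10.7 and 26.1 in control, dark and light, while dynein light chains stand at 18.3, 23.5 and 14.8.

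Ratios of RPKM between subunit transcripts were also taken within each library. The RPKM of LC8 was 4.81 times that of heavy chain 1 in control, 12.2 times in the dark and 3.37 times under strong light. Against light intermediate chain 1 the same ratios were 11.3, 48.9 and 9.43. The ratio of alpha- to beta-tubulin moved less, at 0.447, 0.508 and 0.445, and that of microtubule-associated protein 1 to beta-tubulin was 0.175, 0.0576 and 0.179.

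Strong light left the module close to control. At least 2-fold higher were 10 of the 102 compared members (9.80%, against 7.77% of all compared isotigs), and at least 2-fold lower were 5 (4.90%, against 7.22%). The median log2 ratio was 0.09, against 0.00 for all. Of the 32 members averaging 30 reads or more, none passed 2-fold in either direction, where 1.08% of all isotigs at that depth were higher and 1.49% lower. The 15 members past 2-fold all averaged fewer reads than that. The counting interval lay wholly above 1 for 7 of the 102 (6.86%, against 6.16% of all) and wholly below 1 for 4 (3.92%, against 5.31% of all). Among these, kinesin isotig22155 of family 1/13/14 had 20, 14 and 40 reads in control, dark and light and a light-to-control ratio of 1.91 (1.09 to 3.45). The sum of the microtubule-associated proteins was 1.08-fold control (1.02 to 1.15) and that of the light chains 0.851-fold (0.765 to 0.946).

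Light and dark, the 2 exposures, lay further apart than light and control. At least 2-fold higher in light than in dark were 36 of 102 members (35.3%, against 26.2% of all compared isotigs and 32.8% of those with a KEGG name), and 4 were at least 2-fold lower (3.92%, against 8.09%). The counting interval lay wholly above 1 for 27 members (26.5%, against 23.8% of all and 36.9% of those with a KEGG name) and wholly below 1 for 8 (7.84%, against 9.43% of all). Both comparisons of the dark library use the same dark reads, and both exposures share the control, so these counts are not independent. Light stood above dark for the sums of microtubule-associated proteins (2.67-fold, 2.47 to 2.88) and kinesin motors (1.95-fold, 1.76 to 2.16), and below it for LC8 (0.641-fold, 0.580 to 0.709).

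Other gene lists of the cytoskeleton were read on the same scale. Actin genes, the other main filament system, summed to 24071, 23752 and 26269 reads over 54 isotigs, and of 49 compared, 1 was at least 2-fold higher and 9 lower in the dark (18.4%, below the 24.0% of all), with a median log2 ratio of -0.32, beside -0.31 for all. Spindle and mitosis genes summed to 1768, 1187 and 2013 reads over 79 isotigs, 1.61-fold lower in the dark. Of 63 compared, 2 were at least 2-fold higher and 19 lower in the dark, with a median of -0.69. That is 30.2% lower, about the 29.7% of isotigs with a KEGG name and above the 24.0% of all. Centriole and cilium genes were sparse, with 53, 37 and 69 reads over 9 isotigs, most of them from centrin-2.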

How the data were processed

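Body wall RNA was converted to cDNA after poly(A) selection and sequenced, 1 library per condition. CASAVA 1.5 is listed per the submitters' processing notes. For assembly and alignment the tools are not given in sources used here. The deposited tables hold, per isotig and per the file headers, the read count, the RPKM value, the percent of the isotig covered and its length, with the best KEGG hit. Deposited RPKM equals the count scaled by length and library total.

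Ratios were taken as log2(RPKM + 0.5) for isotigs averaging 1 RPKM or more. Counting intervals (95%) are exact conditional binomial intervals on reads, and shares carry Wilson intervals. An isotig without reads was set against a floor of 3 reads. Scripts were tested on simulated data. Python 3.11.15, numpy 2.4.6, pandas 2.3.3, scipy 1.17.1, matplotlib 3.10.9 and edgeR 4.0.16 (R 4.3.3, for scaling factors only) were used.

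Named members were the 15 with the highest mean RPKM, the 6 highest and 6 lowest per comparison with a mean of at least 30 reads, those with 0 reads in 1 library and at least 15 in another, and the most abundant of each role. Others named were chosen after their values were seen, as was the split of heavy chains into cytosolic and axonemal. The members and lists were chosen with earlier results of these data known, and list patterns were adjusted to the annotation's wording.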

Additional observations from a re-analysis of the deposited data

How the results depend on the processing

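Leaving out a library was not possible, for the same reason as pairing. No paired analysis was possible because each group has 1 library. The member medians of the 3 comparisons kept their direction under each scaling, pseudocount and annotation setting run. Of 84 log2 ratios of named members, the sign differed from that with library totals for 6 with median-of-ratios size factors, 7 with TMM factors and 3 with totals that leave out the 20 most abundant isotigs. In the same order, 22, 22 and 2 of the 84 ratios left their counting interval. Counting intervals were computed with library totals only, so a dark interval that ends near 1 may span it under another scaling. Size factors and TMM factors both raise all dark ratios, and the members' median dark log2 ratio became -0.25 and -0.26. With either, 25 members were at least 2-fold higher in light than in dark in place of 36, and 8 lower in place of 4. With a pseudocount of 0.1 RPKM 8 members were lower in light than in control, and with 1 RPKM 3. Without a filter the counts were 19 higher and 10 lower for light against control, 14 higher for dark against control and 12 lower for light against dark. With a mean of at least 5 RPKM they were 5, 0, 2 and 1. Summing RPKM over each KEGG name gave 1 higher and 1 lower for light against control, 1 and 10 for dark against control, and 12 and 1 for light against dark. At 1.5-fold these 6 counts were 18, 13, 11, 48, 55 and 12, and at 4-fold 3, 0, 3, 10, 9 and 0. No share over all isotigs is given beside the counts of these settings. They show only how far each count moved with the setting, and not whether members differed from other isotigs. Without the 20 most abundant isotigs, members took 0.994%, 0.938% and 1.03% of reads in control, dark and light. The change of the counts follows from the construction of each setting (fewer or more isotigs compared, another limit). Depth limits the module, since 83 of 144 members had a mean under 10 reads.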
